A study of Rattus norvegicus with 4 samples.

Results

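The genes described here are named for pathways that recognise, cut out, bypass or rejoin damaged DNA. Some of them are known to act on the adducts and crosslinks left by platinum drugs, but not all. They were taken by gene symbol: protein-coding rows named for nucleotide excision repair, the Fanconi anaemia pathway, homologous recombination, end joining, base excision and single-strand break repair, bypass (translesion) synthesis, mismatch repair, and the kinases Atm and Atr. The rule gave 72 of the 22293 protein-coding genes in a table of 33506 genes. The data are poly-A RNA sequencing of whole lumbar dorsal root ganglia (DRG), the ganglia that hold the cell bodies of sensory neurons, from wild-type Wistar rats that received either vehicle (PBS) or cisplatin, with 2 libraries per group. Cisplatin was given intraperitoneally to neonatal rats at 0.3 mg/kg on each of 2 days, and the same schedule was used for vehicle. The labels give the time of collection as 16 days after treatment. Each library pooled several ganglia, so neurons, satellite glia, Schwann cells, fibroblasts, vessels and immune cells all contribute RNA. Which sex each library came from is not given in the sources used here. The comparison asked whether the transcripts of the repair machinery stood at different levels in ganglia of cisplatin-treated and vehicle-treated rats.

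Cisplatin binds neighbouring purines, mostly on 1 strand, and more rarely joins the strands. Adducts within a strand are removed by nucleotide excision repair. XPC with RAD23B, or the DDB complex, finds the lesion in the genome at large, and CSA and CSB (Ercc8 and Ercc6) find it where an RNA polymerase has stalled. The TFIIH complex opens the helix, XPA checks the lesion, and a pair of nucleases then cut around it, XPG (Ercc5) on the 3′ side and the ERCC1-XPF pair (Ercc1 and Ercc4) on the 5′ side. Crosslinks between strands need the Fanconi anaemia core complex, which marks FANCD2 and FANCI, and then bypass polymerases and homologous recombination. Mismatch repair proteins also bind platinum adducts. Sensory neurons do not divide, and nucleotide excision repair is a route that does not depend on cell division.

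The promoters of the 3 genes for the cutting nucleases are shown first, because these genes had the 3 lowest p-values in excision repair and went in different directions. Each line runs 5′ to 3′ from 250 bases before the RefSeq start to 4 bases after the start on build GRCr8. Capitals mark 3 of 5 letter strings searched on both strands: the GC box (GGGCGG), the ETS string (CCGGAAG) and the E2F string (GCGGGAA). The other strings were CCAAT and the NRF1 string GCGCATG. The Ercc1 window is chr1:88124491-88124744 on the plus strand, the Ercc4 window is chr10:2955383-2955636 on the minus strand, and the Ercc5 window is chr9:53801221-53801474 on the plus strand. Ercc4 had 4 listed starts, and the window with the highest GC content is printed.
Ercc1: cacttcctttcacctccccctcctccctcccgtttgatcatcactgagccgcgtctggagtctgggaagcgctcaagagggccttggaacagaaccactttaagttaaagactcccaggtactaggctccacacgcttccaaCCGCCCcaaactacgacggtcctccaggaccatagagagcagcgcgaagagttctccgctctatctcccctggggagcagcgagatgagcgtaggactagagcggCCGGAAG
Ercc4: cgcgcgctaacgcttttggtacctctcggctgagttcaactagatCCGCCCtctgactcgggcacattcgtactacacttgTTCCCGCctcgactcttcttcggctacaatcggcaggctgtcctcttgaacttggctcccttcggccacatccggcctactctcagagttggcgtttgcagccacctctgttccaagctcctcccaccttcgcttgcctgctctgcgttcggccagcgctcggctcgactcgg
Ercc5: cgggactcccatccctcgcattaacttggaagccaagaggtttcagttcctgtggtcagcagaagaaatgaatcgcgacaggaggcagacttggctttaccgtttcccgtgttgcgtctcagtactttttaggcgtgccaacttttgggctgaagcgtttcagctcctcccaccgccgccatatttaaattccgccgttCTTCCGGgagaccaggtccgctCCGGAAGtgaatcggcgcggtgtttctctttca
The Ercc1 window held the ETS string across the start and a GC box on the opposite strand at -108. The Ercc4 window held a GC box at -205 and the E2F string at -169, both on the opposite strand. Ercc5 held the ETS string on both strands, at -29 and -51. None of the 3 windows contained CCAAT or the NRF1 string.

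Of the 72 repair genes, 59 had a window in the RefSeq table, with 64 windows in all. The letters of a GC box were in 65.6% of the repair windows and in 30.7% of all 33469 windows. E2F letters, named for the factors that drive S-phase genes, were in 18.8% against 3.43%, ETS letters in 20.3% against 7.47%, and the NRF1 string in 12.5% against 3.31%. CCAAT was in 37.5% against 34.4%. The repair windows were also richer in G and C, with a median of 58.7% against 51.6%, and every string but CCAAT is itself rich in G and C, so these shares are not independent of base composition. The E2F and GC box strings can overlap, and 778 of all windows held both. A match is a description of the letters and shows no binding.

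The libraries held 21384801 to 25618417 counts, of which the repair genes took between 0.152% and 0.171%. Values per library are given as FPKM, a level per gene length, in the order vehicle replicate 1 and 2, then cisplatin replicate 1 and 2. Log2 fold changes are cisplatin against vehicle from edgeR's quasi-likelihood test, with adjusted p over all 14719 protein-coding genes that passed the filter on low counts. Neuronal markers were abundant, with summed FPKM of 9643 and 7389 in vehicle and 12925 and 9068 in cisplatin libraries. Those of myelinating Schwann cells were far higher in replicate 2 of both groups (28200 and 72982 in vehicle, 23116 and 65785 in cisplatin libraries), and muscle markers stood at 399 in vehicle replicate 1 against 12.3 to 41.1 in the others. The endothelial marker Cldn5 was listed at 0 in all 4 libraries. In whole ganglia, fewer cells of a type and less RNA per cell cannot be told apart. The labels do not say whether the libraries came from separate rats beyond their numbering, so the p-values measure the spread between these libraries.

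The filter kept 70 of the 72 repair genes. Rad51ap2, a gene of the recombination group, had 1 to 3 counts per library, and Msh4, which acts in meiosis, had 0 to 3. Median level differed widely between pathways. Base excision and single-strand break genes had a median mean-FPKM of 9.48, nucleotide excision genes 8.28 and end-joining genes 7.97. Mismatch repair followed at 3.74, bypass polymerases at 2.32, the kinases at 2.30, Fanconi genes at 2.28 and homologous recombination at 0.984. The most abundant transcripts were those of the excision repair genes Rad23b and Ddb1, the abasic-site nuclease Apex1 and the small TFIIH subunit Gtf2h5.

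**Figure D1:**
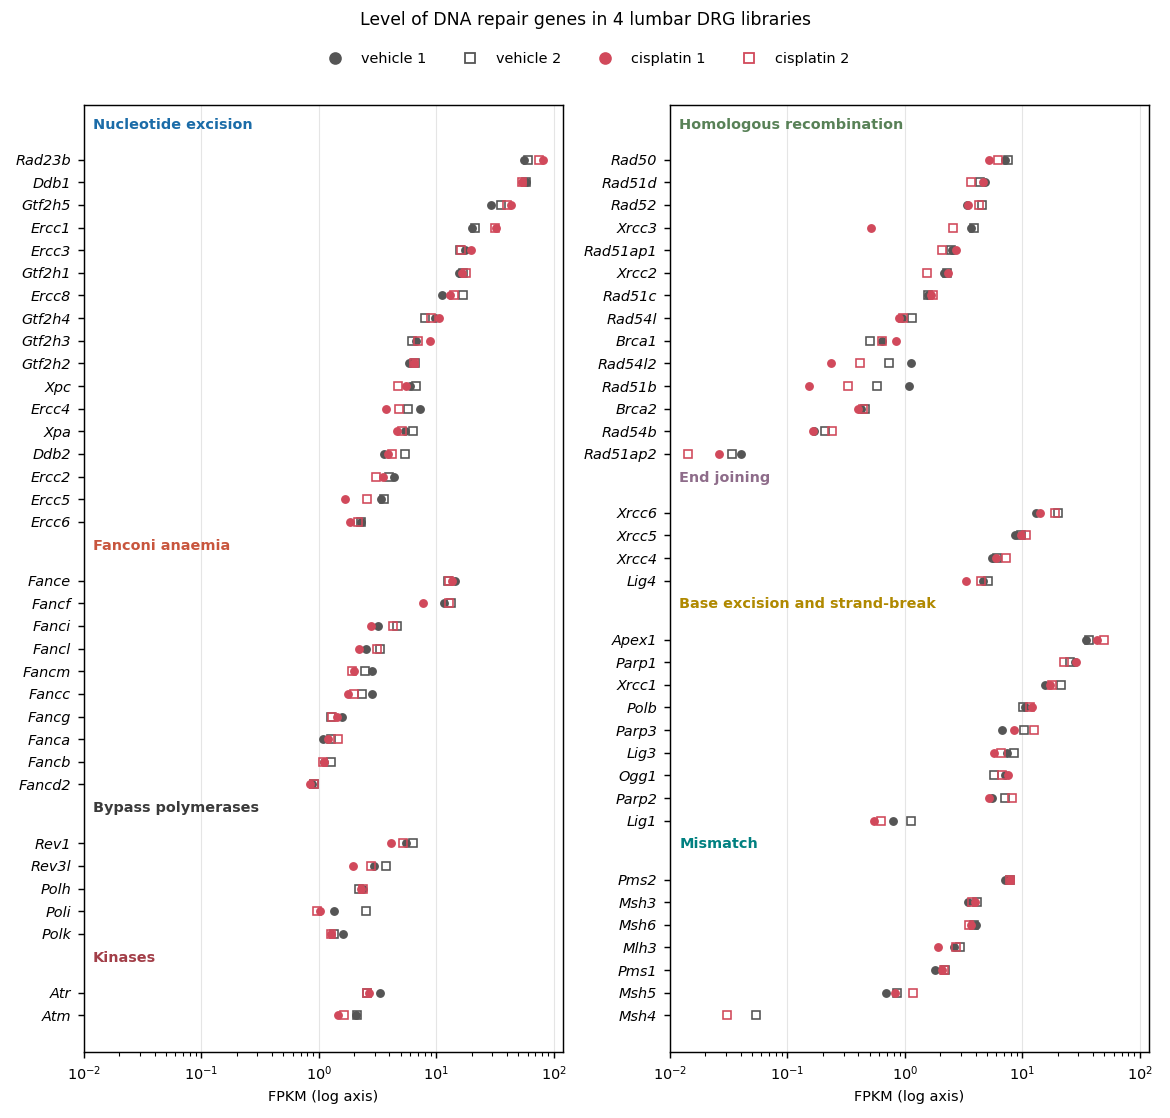
FPKM of the repair genes drawn, in each of the 4 libraries (log axis), grouped by pathway, with vehicle and cisplatin libraries in different colours; Msh4 at 0 in replicate 1 of both groups is not drawn. Excision and base excision genes fill the upper range, up to Rad23b at 81.6, and recombination genes the lower, with a median of 0.984.

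No repair gene passed the test. In edgeR's quasi-likelihood test 0 of 70 reached an adjusted p under 0.05 with a fold change of at least 1.5, where 0.00679% of all genes tested did, and DESeq2 also called 0, against 0.951% of all genes. At an unadjusted p under 0.05, 5 repair genes were listed (7.14%) beside 9.43% of all genes tested. One of them, Ercc1, was higher after cisplatin, and 4 were lower: Ercc4, Ercc5, Rad51b and Rad54l2. The background was 3.7% for higher and 5.73% for lower, and the members' shares were 1.43% and 5.71%, so neither share exceeded that of all genes. All 5 also had a fold change of at least 1.5, where the background was 7.95%. DESeq2 gave 3 members an unadjusted p under 0.05 (4.29%), beside 9.26% of all genes. The number of listed members depended on the library: it was 1 without vehicle replicate 1, 1 without vehicle replicate 2, 0 without cisplatin replicate 1 and 6 without cisplatin replicate 2.

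The fitted fold changes lay on the low side. Of the 70 genes, 45 had a log2 fold change below 0 (64.3%), against 50.9% of all genes tested, and 25 were above 0 (35.7% against 49.1%). The median was -0.07 against -0.01. The cisplatin libraries both stood below both vehicle libraries for 23 genes (32.9%), where the background was 20.8%, and both above for 7 genes (10%), where it was 21.1%. Taken in either direction, 30 genes (42.9%) had groups that did not overlap, a share close to the 41.9% of all genes. With 2 libraries per group the exact permutation test over samples cannot give less than 0.333. Gene length moved with this pattern and is described with the kinases. For 45 of the 70 genes the difference between the 2 libraries of a group exceeded the difference between the group means (64.3%, beside 70% of all genes).

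**Figure D2:**
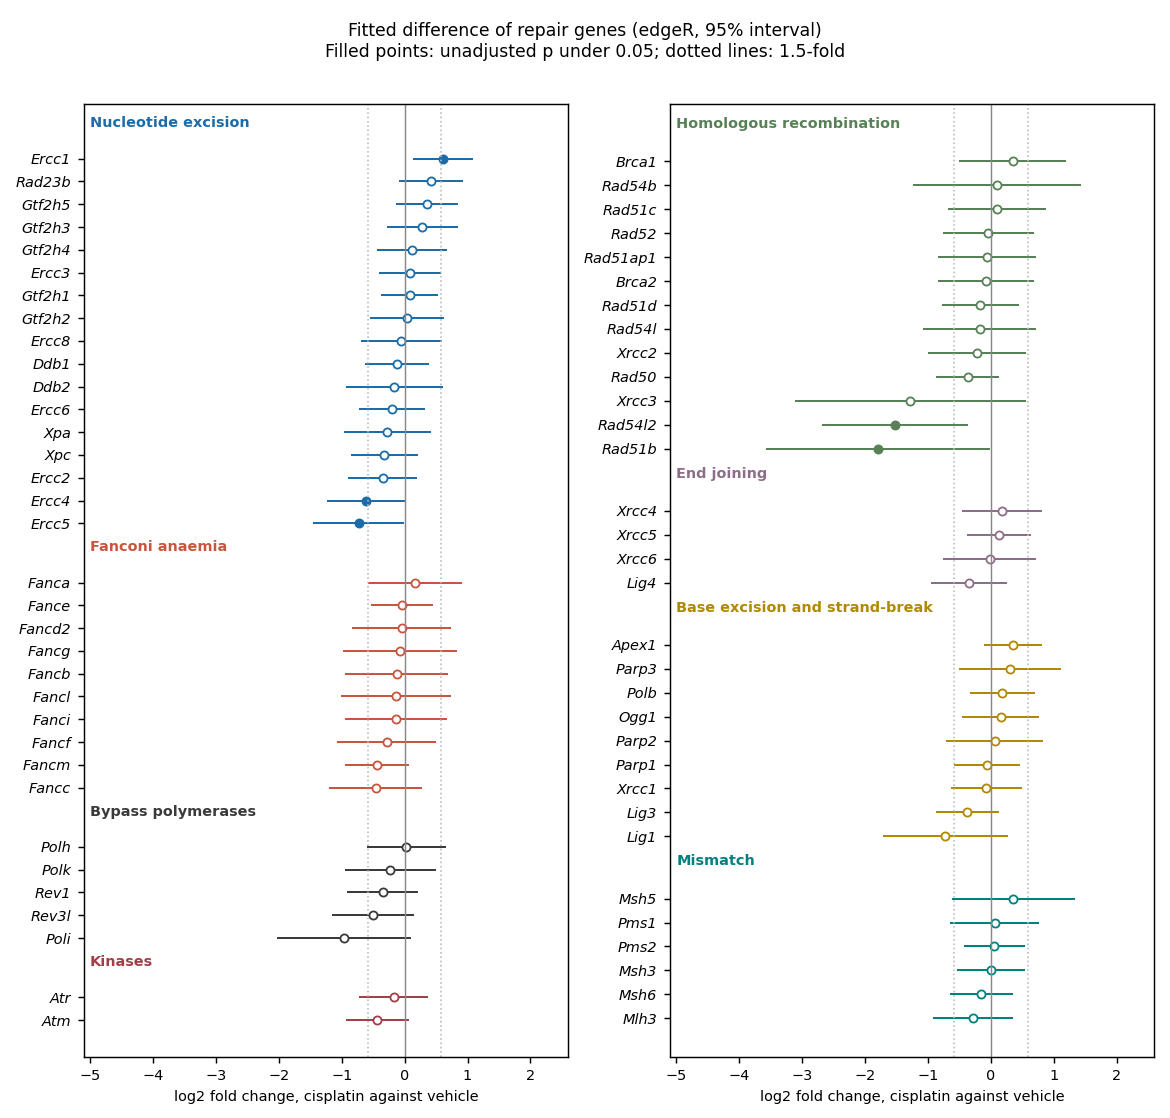
Log2 fold change of the repair genes drawn, cisplatin against vehicle, with its 95% interval, grouped by pathway. Intervals that leave out 0 belong to Ercc1 on the high side and to Ercc4, Ercc5, Rad51b and Rad54l2 on the low side, and none of the 5 passed the adjusted test.

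A narrow interval was found for 7 genes, whose 95% limits stayed within 1.5-fold either way (10%, beside 8.15% of all genes). Among them were the TFIIH helicase Ercc3 (XPB) and TFIIH subunit Gtf2h1, the Fanconi core gene Fance, the strand-break sensor Parp1, and the mismatch genes Msh3 and Pms2. For the other 63 genes a change of 1.5-fold was not excluded by the interval.

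Ercc1, the non-catalytic partner of the XPF nuclease (rat Rnor_6.0, chr1:80256973-80268198, plus strand), had FPKM of 19.99 and 21.6 in vehicle and 32.2 and 31.5 in cisplatin libraries. The groups did not overlap, and the libraries within each group lay close together. The log2 fold change was 0.61 with a standard error of 0.19 (95% interval 0.15 to 1.07) and an adjusted p of 0.522 in edgeR, and it stayed between 0.56 and 0.67 with any 1 library left out. With a correction for gene length it was 0.42. Ercc1 overlaps the RNA polymerase I subunit gene Cd3eap on the opposite strand, which had counts of 133, 121, 125 and 150. Whether strand was used in counting is not given in the sources used here, so reads of the pair may have been shared.

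Ercc4, which encodes the catalytic subunit XPF (chr10:2010648-2037891, minus strand), stood at 7.28 and 5.78 FPKM in vehicle and 3.72 and 4.81 in cisplatin libraries. The cisplatin libraries were both lower, at a log2 fold change of -0.62, with a standard error of 0.24 and an adjusted p of 0.527 in edgeR. Its range was -0.82 to -0.44 with 1 library left out. The partner of Ercc1 thus had a fold change of the opposite sign. The ratio of Ercc1 to Ercc4 FPKM was 2.75 and 3.73 in vehicle and 8.65 and 6.55 in cisplatin libraries, a ratio chosen after its values were seen.

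The Ercc4 counts are uncertain, because the table annotates 3 further loci on the same chromosome with the XPF protein. Ercc4 itself had counts of 512, 323, 266 and 318. An assembled locus without a symbol at chr10:1005748-1010589 had 50, 39, 90 and 76. The protein-coding gene AC117889.1 beside it, at chr10:975697-1003352, had 38, 15, 38 and 62, and the long noncoding AABR07028908.2 at chr10:96409-120050 had 32, 26, 19 and 19. Together the 3 other loci had 120 and 80 counts in vehicle and 147 and 157 in cisplatin libraries, higher in cisplatin while Ercc4 was lower. When all 4 loci were summed, the TMM-normalised level was 25.2 and 20.5 CPM in vehicle and 16.3 and 20.2 in cisplatin libraries. The groups were then separated by little, and the log2 fold change was -0.33, with a standard error of 0.23 and an adjusted p of 0.653 in edgeR. How reads were shared between these loci was not tested.

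**Figure D3:**
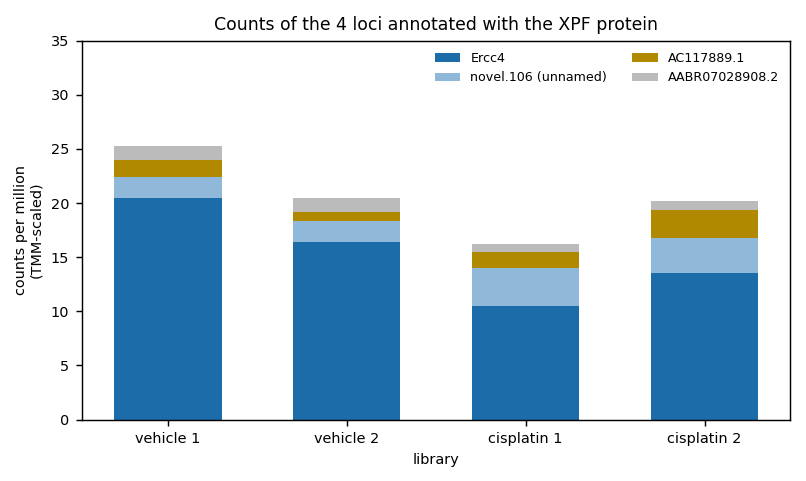
Stacked bars of TMM-normalised CPM in each library for Ercc4 and the 3 other loci annotated with the XPF protein, so that the bar height is the sum of the 4. Ercc4 is lower in both cisplatin libraries, while the summed level of 20.2 in cisplatin replicate 2 is close to 20.5 in vehicle replicate 2.

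Ercc5, which encodes the 3′ nuclease XPG (chr9:50925619-50970955, plus strand), had FPKM of 3.39 and 3.59 in vehicle and 1.68 and 2.55 in cisplatin libraries. The vehicle libraries were nearly equal and both cisplatin libraries lay below them, cisplatin replicate 1 by more. The log2 fold change was -0.73, with a standard error of 0.28 and an adjusted p of 0.527 in edgeR, and leaving out cisplatin replicate 2 or 1 gave -1.06 or -0.45. Xpa, which encodes the protein that checks the lesion, also lay lower in both cisplatin libraries, at 5.43 and 6.34 against 4.60 and 5.15. Its log2 fold change was -0.28, with a standard error of 0.27 and an adjusted p of 0.748 in edgeR. Of the 4 genes for lesion verification and incision, Ercc1 was the only one above 0. Xpa overlaps Ncbp1, so its reads carry the same doubt over strand. The same holds for other repair genes that overlap a coding gene on the opposite strand, among them Ercc2, Gtf2h3, Lig3 and Msh6.

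**Figure D4:**
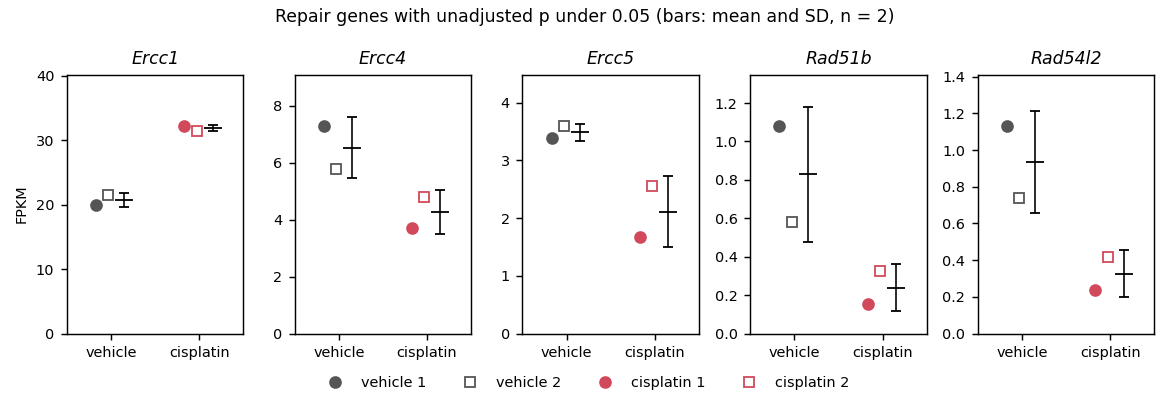
FPKM in each library of the 5 repair genes with an unadjusted p under 0.05: Ercc1, Ercc4, Ercc5, Rad51b and Rad54l2. Points are libraries, and bars give the group mean and SD (n = 2). In each panel the 2 groups do not overlap, with Ercc1 higher and the other genes lower after cisplatin.

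Among the genes that find the lesion, Rad23b, which holds XPC in a stable complex, had the highest level of all repair genes, at 55.7 and 60.8 FPKM in vehicle and 81.6 and 75.0 in cisplatin libraries. Both cisplatin libraries were above both vehicle libraries (log2 fold change 0.42, standard error 0.20, adjusted p = 0.553 in edgeR). Its partner Xpc, the sensor of distorted DNA, lay the other way at 5.94 and 6.76 against 5.51 and 4.69 (log2 fold change -0.32, standard error 0.21). Ddb1, an adaptor of ubiquitin ligases, had groups apart by a small difference, at 58.7 and 58.1 against 54.1 and 53.6 (log2 fold change -0.12, standard error 0.20). Ddb2, which gives that ligase its affinity for damaged DNA and is a p53 target, had 3.60 and 5.41 in vehicle and 3.85 and 4.23 in cisplatin libraries. The groups overlapped, and the sign of its log2 fold change (-0.16, standard error 0.30) turned to 0.17 without vehicle replicate 2.

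The transcription-coupled genes differed between groups by no more than their standard errors. Ercc6 (CSB, the ATPase at the stalled polymerase) had 2.28 and 2.29 FPKM in vehicle and 1.83 and 2.16 in cisplatin libraries, and its log2 fold change was -0.20 (standard error 0.20), or 0.12 with the length correction. Ercc8 (CSA, part of a ubiquitin ligase) had 11.3 and 16.8 against 13.1 and 14.2. The libraries of a group differed more than the groups did, and its log2 fold change of -0.05 turned to 0.27 without vehicle replicate 2.

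TFIIH is the complex shared by transcription and repair. Of the 7 TFIIH genes that the symbol rule took, 6 were above 0, with a median log2 fold change of 0.09. The smallest subunit Gtf2h5, which stabilises the complex, had 29.2 and 35.4 FPKM in vehicle and 43.1 and 40.0 in cisplatin libraries (log2 fold change 0.36, standard error 0.19, adjusted p = 0.579 in edgeR). Gtf2h3 also had both cisplatin libraries higher, at 6.80 and 6.17 against 8.79 and 7.05. The exception was Ercc2, the XPD helicase that opens the helix in repair, at 4.38 and 3.98 against 3.55 and 3.05 (log2 fold change -0.35). The second helicase, Ercc3, overlapped between groups at 17.6 and 16.0 against 19.6 and 16.2. None of these values passed the test. Over all 18 excision repair genes the fold changes were balanced, 9 above and 9 below 0, with a median of -0.03.

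In the Fanconi anaemia pathway 9 of 10 genes had a log2 fold change below 0, with a median of -0.13, and none had an unadjusted p under 0.05. Fancm, the translocase that brings the core complex to the DNA, had 2.82 and 2.49 FPKM in vehicle and 2.01 and 1.92 in cisplatin libraries (log2 fold change -0.44, standard error 0.20, adjusted p = 0.546 in edgeR). The core gene Fancc was lower in both cisplatin libraries as well, at 2.85 and 2.32 against 1.77 and 2.02. These were the only 2 of the 10 Fanconi genes whose groups did not overlap, where 41.9% of all genes had groups apart. With the length correction Fancm, which is 6554 bases long, was at -0.15 and Fancc at -0.45.

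Fance, which links the core to FANCD2, had the highest level of the pathway and was nearly equal in all libraries, at 14.6 and 12.6 in vehicle and 13.5 and 12.97 in cisplatin libraries. Fancd2, the protein that the core marks, had 0.879 and 0.915 against 0.838 and 0.907 (log2 fold change -0.05, standard error 0.31). Fanci, its partner, followed replicate number more than group, at 3.18 and 4.60 against 2.77 and 4.32. Fancf, an adaptor of the core, stood at 7.74 in cisplatin replicate 1 and at 11.8 to 13.3 in the other libraries. Fanca, also of the core complex, was the 1 gene above 0, with overlapping groups at 1.08 and 1.28 against 1.19 and 1.46.

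Homologous recombination genes, with Rad54l2 counted among them by its symbol, were low. Of the 14 tested, 11 lay below 0, with a median log2 fold change of -0.17. Brca1, which prepares broken ends for recombination, was at 0.641 and 0.503 against 0.833 and 0.632 (log2 fold change 0.35, standard error 0.33). Brca2, which loads the recombinase onto DNA, was almost equal across libraries at 0.420 and 0.457 against 0.398 and 0.439 (log2 fold change -0.07, standard error 0.30).

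Rad51b, which helps assemble the recombination filament, had the lowest fold change of the repair genes. It had counts of 21 and 9 in vehicle and 3 and 6 in cisplatin libraries, or FPKM of 1.08 and 0.582 against 0.152 and 0.328. The groups did not overlap, but 1 cisplatin library sat at 3 counts, the floor used here. The log2 fold change was -1.79 with a 95% interval from -3.56 to -0.02, a standard error of 0.71 and an adjusted p of 0.528 in edgeR. It was -2.42 without cisplatin replicate 2 and -1.27 without vehicle replicate 1. The related Rad51c, Rad51d and Xrcc2 were near level, with log2 fold changes of 0.10, -0.17 and -0.22.

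Rad54l2, a helicase-like protein taken by the symbol rule although it is best known as a cofactor of nuclear receptors, had 1.13 and 0.739 FPKM in vehicle and 0.236 and 0.416 in cisplatin libraries. Every cisplatin value was below every vehicle value, and the log2 fold change was -1.52, with a standard error of 0.46 and an adjusted p of 0.522 in edgeR and 0.218 in DESeq2. It ranged from -1.98 to -1.17 with 1 library left out. A second locus annotated with the same protein, LOC102552166, had counts of 25, 2, 9 and 11, and the sum of both gave -1.35.

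Xrcc3, which acts at a later step of recombination, rested on 1 library. Its FPKM was 3.62 and 3.85 in vehicle, 0.513 in cisplatin replicate 1 and 2.58 in cisplatin replicate 2. The log2 fold change was -1.28 (standard error 0.73), but -0.53 without cisplatin replicate 1 and -2.85 without cisplatin replicate 2. Rad50, part of the complex that holds broken ends, had the highest level of the pathway and was lower in both cisplatin libraries, at 7.11 and 7.47 against 5.20 and 6.17 (log2 fold change -0.37, standard error 0.19, adjusted p = 0.577 in edgeR).

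The 4 end-joining genes, which rejoin broken ends without a template, had a median log2 fold change of 0.06. Xrcc6 (Ku70), which binds the ends, followed replicate number, at 13.1 and 20.2 FPKM in vehicle and 14.0 and 19.1 in cisplatin libraries. Its log2 fold change of -0.02 had a standard error of 0.29. Its partner Xrcc5 (Ku80) had 8.71 and 9.82 against 9.67 and 10.8. Lig4, the ligase of the pathway, was lower in both cisplatin libraries, at 4.66 and 5.14 against 3.32 and 4.41.

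Base excision and single-strand break repair, which deal with oxidised bases and nicks, had 5 of 9 genes above 0 and a median of 0.06. Apex1, the nuclease that cuts at abasic sites, stood at 35.1 and 36.8 FPKM in vehicle and 43.2 and 49.2 in cisplatin libraries, with groups apart (log2 fold change 0.35, standard error 0.18, adjusted p = 0.567 in edgeR). Polb, the gap-filling polymerase, was also higher in both, at 10.5 and 10.2 against 12.1 and 11.5. The ligases lay the other way. Lig3, which seals nicks with XRCC1, had 7.34 and 8.54 against 5.69 and 6.63, and Lig1, the ligase of replication, had 0.795 and 1.13 against 0.542 and 0.627. With the counts of LOC100911727, annotated as the same ligase, the log2 fold change of Lig1 was -0.58 in place of -0.72. Parp1, the main sensor of strand breaks, overlapped between groups at 28.0 and 25.3 against 28.7 and 22.6, as did Ogg1, Parp2, Parp3 and Xrcc1.

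The bypass polymerases, which copy past lesions that stop the replicative enzymes, had the lowest median of the pathways, -0.35 over 5 genes. For 4 of the 5 both cisplatin libraries lay below both vehicle libraries, as for 20.8% of all genes. Rev3l, the catalytic subunit of polymerase zeta, had 2.95 and 3.71 FPKM in vehicle and 1.97 and 2.77 in cisplatin libraries (log2 fold change -0.50, standard error 0.25, adjusted p = 0.570 in edgeR). Rev1, the scaffold of the bypass enzymes, had the highest level at 5.59 and 6.31 against 4.14 and 5.23 (log2 fold change -0.35, standard error 0.22, adjusted p = 0.621 in edgeR). Poli rested on vehicle replicate 2, at 1.34 and 2.52 against 1.02 and 0.968, and its log2 fold change of -0.96 was -0.43 without that library. Polh, the polymerase known to copy past platinum adducts of adjacent guanines, was the exception and was level, at 2.38 and 2.22 against 2.31 and 2.38 (log2 fold change 0.03, 95% interval -0.59 to 0.64). With the length correction the median of the 5 was -0.10 and no longer the lowest, since the Fanconi genes were at -0.13 and homologous recombination at -0.12.

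Mismatch repair was evenly split, with 4 of 8 genes tested above 0 and a median of -0.03. Pms2, the endonuclease subunit of the pathway, had the highest level and barely varied, at 7.17 and 7.79 against 7.77 and 7.84. Msh6, a subunit of the sensor of single mismatches, had groups apart, at 4.003 and 3.84 against 3.62 and 3.48, a log2 difference of -0.15.

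Of the kinases that signal damage, Atm, which answers strand breaks, had 2.06 and 2.12 FPKM in vehicle and 1.45 and 1.65 in cisplatin libraries. The groups did not overlap, and the log2 fold change was -0.44, with a standard error of 0.19 and an adjusted p of 0.540 in edgeR. Atr, which answers stalled replication, overlapped at 3.31 and 2.56 against 2.66 and 2.57 (log2 fold change -0.17, standard error 0.21, adjusted p = 0.808 in edgeR). Both are long transcripts, of 12340 and 8759 bases in the table.

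Length moved with the fold changes across the whole table. Over all 14719 genes Spearman's rho of log2 fold change with gene length was -0.36, and over the 70 repair genes it was -0.31, a correlation across genes that share the same 4 libraries. Of the 10 repair genes longer than 5000 bases, 9 had a log2 fold change below 0 and 6 had both cisplatin libraries below both vehicle libraries, which 20.8% of all genes, of any length, had. Their median was -0.32, and -0.02 once length was corrected in each library. With that correction Atm was at 0.02, Atr at 0.20, Brca2 at 0.33 and Rev3l at -0.09, and the shares below 0 were 55.7% of the repair genes and 48.7% of all genes. By the same unadjusted threshold and fold of 1.5, the list then held only Rad51b and Rad54l2, 2.86% of the repair genes beside 6.11% of all genes. The low values of the long repair genes therefore cannot be told apart from a shift with length in these libraries, and its source was not tested.

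**Figure D5:**
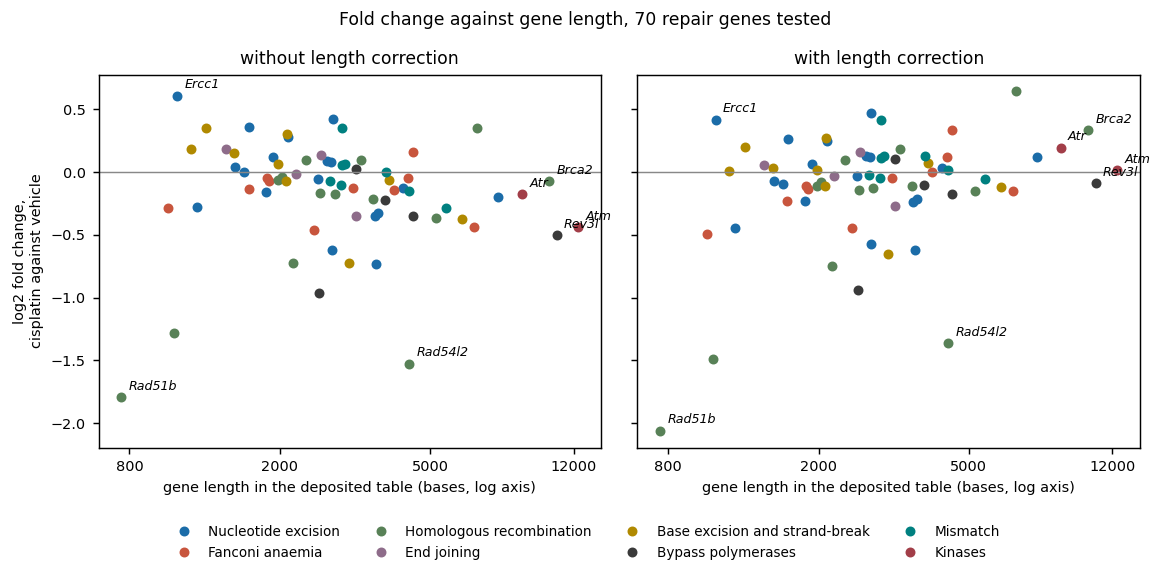
Log2 fold change of the 70 repair genes against the gene length in the table (log axis), without and with the length correction, coloured by pathway. Atm, Rev3l and Atr lie below 0 on the left, and on the right Atm and Atr lie above it, while Ercc1 stays above and Rad51b and Rad54l2 stay below.

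A further list of DNA repair and damage-response genes outside the symbol rule was read from the same fit. Of 68 listed, 62 were in the table and tested, and none was called by edgeR. Their log2 fold changes lay above 0 for 36 and below 0 for 26, with a median of 0.04 beside -0.07 for the genes of the symbol rule. With the length correction the medians were -0.008 and -0.04, on the same side of 0. At an unadjusted p under 0.05, 1 of the 62 was higher and 1 lower, where 3.7% of all genes tested were higher and 5.73% lower. H2afx, the histone variant marked around strand breaks, had 17.0 and 21.8 FPKM in vehicle and 28.7 and 28.4 in cisplatin libraries (log2 fold change 0.55). Fan1, a nuclease for crosslinks, had 1.93 and 1.71 against 1.19 and 1.12 (log2 fold change -0.66). With the length correction H2afx was at 0.41 and Fan1 at -0.44. Readouts of p53, which cisplatin damage can activate, had 0 of 7 tested with an unadjusted p under 0.05, beside 9.43% of all genes. Of the 7, 4 lay above 0 and 3 below 0, with a median of 0.07. Among 14 genes of dividing cells none had an unadjusted p under 0.05, beside the same 9.43%. Of these 14, 9 lay above 0 and 5 below 0, with a median of 0.23, or 0.26 with the length correction. Their summed FPKM was 35.6 and 30.6 in vehicle and 37.9 and 38.9 in cisplatin libraries.

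Cell type markers moved in part with the comparison. Of the 10 neuronal markers 9 had a log2 fold change above 0, with a median of 0.36. All 8 markers of myelinating Schwann cells were below 0, with a median of -0.36. None of the markers of either type had an unadjusted p under 0.05, which 9.43% of all genes tested had. Satellite glial markers had a median of -0.17 with 1 lower at that threshold (Kcnj10), macrophage and leukocyte markers -0.01 with 1 higher (Lyz2), and fibroblast and meningeal markers -0.43 with 1 of each (Ptgds higher, Col1a2 lower). With the length correction these medians were -0.06, 0.20 and -0.32, and those of neurons and myelinating Schwann cells were 0.32 and -0.49. Muscle markers had a median of -3.25 with Ckm lower, but this rested on vehicle replicate 1: Ckm had counts of 2213 and 53 in vehicle and 111 and 18 in cisplatin libraries, and the groups overlapped. Erythroid and endothelial markers had none at that threshold. What part a shift in cell makeup had in the levels of Ercc1, Ercc4, Ercc5 and the other repair genes was not tested.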

How the data were processed

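The 4 libraries were grouped by the treatment in their labels. The authors mapped trimmed reads to the rat genome (Ensembl Rnor_6.0) and then assembled transcripts. Per the labels' processing notes the tools were HISAT2 2.0.5, StringTie 1.3.3b and featureCounts 1.5.0-p3. The authors deposited raw counts per gene, and they also deposited FPKM values, which are counts over gene length and over 1 constant per library. The constant was 1.10, 0.950, 1.03 and 0.938 times the total count, close to the TMM factors of 1.10, 0.941, 1.03 and 0.938, so FPKM can be compared between libraries. Gene coordinates, lengths, biotypes and protein annotations are those of the deposited tables, and promoter windows come from RefSeq on GRCr8.

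Protein-coding counts kept by filterByExpr (14719 of 22293 genes) were TMM-normalised and tested two-sided, with no block, by glmQLFTest of edgeR 4.0.16 (R 4.3.3). A gene was called with a fold change of 1.5 or more and a p under 0.05 after Benjamini-Hochberg adjustment. Standard errors and 95% intervals come from the log2 fold change and its F statistic. DESeq2 1.42.0, limma 3.58.1 on log2(FPKM + 1) and log2(FPKM + 0.1) (a scale that understates the change of low genes), other size factors and filters, all biotypes, a lowess correction for gene length (span 0.3) and leaving out each library were alternatives. Summing loci with the same protein annotation was added after seeing the data. On simulated counts for the 14719 genes with 200 changed 4-fold, edgeR recovered 183 with 7 false calls. The changed genes were drawn from those with higher counts, and all genes were given the same spread between libraries. Recovery of smaller changes, or of genes with few counts, was not simulated.

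The repair genes, pathways, motifs and marker lists were chosen with earlier results of these data known. Described with full statistics were members with an unadjusted p under 0.05 or called by DESeq2, 18 factors best known for platinum adducts, and the most abundant member of each pathway. Other members are given by their values. Some members count in the totals but are not reported here by name or in the plots of levels and fold changes. Others given in more detail were chosen after their values were seen. A floor of 3 counts is 0.117 to 0.140 CPM and covers counting error only, since there were no molecular identifiers to tell molecules from copies. Collection was 16 days after treatment by the labels but at P23 in the study's methods. No sequence was read by coordinate from Rnor_6.0.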

Additional observations from a re-analysis of the deposited data

How the results depend on the processing

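Each group had 2 libraries, and the interval of most repair genes spans 1.5-fold. Genes called, 1 without a block, numbered 140 in DESeq2 (50 higher, 90 lower), 4 with no filter, 2 with at least 10 counts in every library, 4 in limma on log2(FPKM + 1), 2 on log2(FPKM + 0.1), 1170 at an unadjusted p, and 0 to 7 with 1 library left out (5 and 3 without vehicle replicates 1 and 2, 0 and 7 without cisplatin replicates 1 and 2). Where a group is left with 1 library, it is assumed to vary like the other group. Repair genes called were 0 in each of these except 5 at an unadjusted p. Summing loci with the same protein name left 4 of those 5, without Ercc4.

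The replicate numbers in the titles are shared by the groups, but nothing states that they pair the rats, and the library names number them differently. Replicate 2 minus replicate 1 correlated between the groups across genes (Pearson r 0.44, Spearman rho 0.57), and less so over the repair genes (Pearson r 0.12). With the replicate number as a block, 1532 genes were called (494 higher, 1038 lower), and 3 repair genes, Ercc1, Ercc5 and Rad54l2 (edgeR adjusted p = 0.0187, 0.0317 and 0.0342), which is 4.29% beside 10.4% of all genes. The block with the length correction called 963 genes (254 higher, 709 lower) and 0 repair genes (6 at an unadjusted p). DESeq2 with the block called 1085 genes (376 higher, 709 lower) and 1 repair gene, Ercc1.

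The median log2 fold change of the repair genes, -0.07, was -0.13 with library size alone, where the median of all genes was -0.06, and -0.12 to -0.014 with 1 library left out (-0.014 without vehicle replicate 2). Some values changed sign, Atm among them from -0.44, more than its standard error of 0.19 from 0. With the length correction, alone and with the block, Atm was at 0.016 in both, Atr at 0.20 in both, Brca2 at 0.33 and 0.34, Ercc6 at 0.12 in both and Fancd2 at 0.12 in both. With 1 library left out, Atr ranged from -0.34 to 0.027, Brca2 from -0.14 to 0.0016, Ddb2 from -0.42 to 0.17, Ercc8 from -0.31 to 0.27, Fancd2 from -0.10 to 0.016, Fance from -0.14 to 0.066, Polh from -0.016 to 0.082 and Xrcc6 from -0.29 to 0.33. Polh was at -0.035 with library size alone. Xrcc6 was at 0.0044 in DESeq2 with the block, 0.0048 on log2(FPKM + 1) and 0.0059 on log2(FPKM + 0.1). Over the genes with full statistics, 430 values kept their direction and side of the threshold, 24 changed sign and 4 came to pass a threshold. Of the pathway medians 92 moved by less than the spread between libraries and 44 by more, and 12, in 5 pathways, changed sign. With the length correction, alone and with the block, the kinases went from -0.30 to 0.11 in both, mismatch repair from -0.03 to 0.07 in both and nucleotide excision from -0.03 to 0.0019 and 0.014. The other sign changes came from leaving out 1 library: end joining at -0.12 and -0.11 (from 0.06), base excision at -0.0083 (from 0.06), mismatch repair at 0.056 and 0.011 and nucleotide excision at 0.086. The cause of these shifts was not tested.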

Other observations

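Several repair genes were ordered by replicate number in both groups. Replicate 2 was above replicate 1 in both groups for 35 of the 70 repair genes tested, beside 37.7% of all genes, and below it in both for 16, beside 34.8%. Parp3, an ADP-ribose transferase of strand-break repair, had 6.64 and 10.3 FPKM in vehicle and 8.45 and 12.6 in cisplatin libraries. Xrcc6 and Fanci had the same order. Schwann cell markers were also higher in replicate 2 of both groups, and their part in these values was not tested. Some genes with replicate 2 above replicate 1 in both groups also had treatment groups that did not overlap, among them Ercc5, Apex1, Rev3l and Atm. Ercc1 and Ercc4 did not have this order of replicates.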
